A study of Mus musculus with 8 samples.

Results

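The expression of 10 genes that glucocorticoid hormones induce in many tissues was followed in the hearts of mice lacking steroid receptor coactivator-2 (SRC-2), the product of Ncoa2. The genes were Fkbp5, Tsc22d3, Sgk1, Zbtb16, Klf9, Klf15, Mt1, Mt2, Dusp1 and Errfi1. They were chosen as well-known targets of the glucocorticoid receptor, and they make up 10 of the 18194 genes measured. RNA from the whole, unstressed heart of each mouse was hybridised to its own Affymetrix mouse expression array. The groups were 4 SRC-2 KO and 4 WT hearts from male mice of the mixed strain C57B/6Jx129Sv, 10 to 12 weeks old and fed ad lib, and the methods describe age-matched littermates. No hormone was given to either group, the KO is present in every tissue of the animal and not only in the heart, and neither corticosterone levels nor the hour at which hearts were taken are given in the sources used here. Each gene was read through its brightest probeset, in units of linear fluorescence signal scaled by the authors to the same trimmed mean on every array. A log2 fold change above 0 means a higher signal in SRC-2 KO hearts. Since whole hearts were used, fewer cells of a type and less RNA per cell cannot be told apart.

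Glucocorticoids enter the cell and bind the glucocorticoid receptor (Nr3c1), which waits in the cytoplasm in a complex of heat shock proteins and co-chaperones. The bound receptor moves to the nucleus, where a receptor dimer sits on glucocorticoid response elements and recruits coactivators of the p160 family, SRC-1 (Ncoa1), SRC-2 and SRC-3 (Ncoa3). In heart muscle the receptor is known to act on contractility, fuel use and the response to stress. Its target genes include brakes on the receptor itself, anti-inflammatory factors, transcription factors of amino acid and lipid metabolism, a salt-regulating kinase, brakes on growth factor signalling and the metal-binding metallothioneins. Several of them also answer to signals other than steroids.

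Of these 10 genes, 9 had a positive log2 fold change in SRC-2 KO hearts and only Dusp1 a negative one, but none was called. The 10 log2 fold changes had a median of 0.30, against -0.03 over all genes tested, of which 46.9% were positive. With limma's common-variance fit and Benjamini-Hochberg adjustment over all genes, 0 of the 10 passed an adjusted p of 0.05, as did 0.0220% of all genes (4 genes). With the prior variance following the mean signal, the trended fit, the members called were again 0, against 0.374% of all genes. At an unadjusted p under 0.05, 2 of the 10 passed in the common-variance fit (Fkbp5 and Tsc22d3), against 10.0% of all genes, and 3 in the trended fit (also Klf15), against 12.6%. In none of the 10 did all 4 SRC-2 KO hearts lie above all 4 WT hearts, or all below, whereas 3.12% of all genes separated above and 3.72% below.

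**Figure D1:**
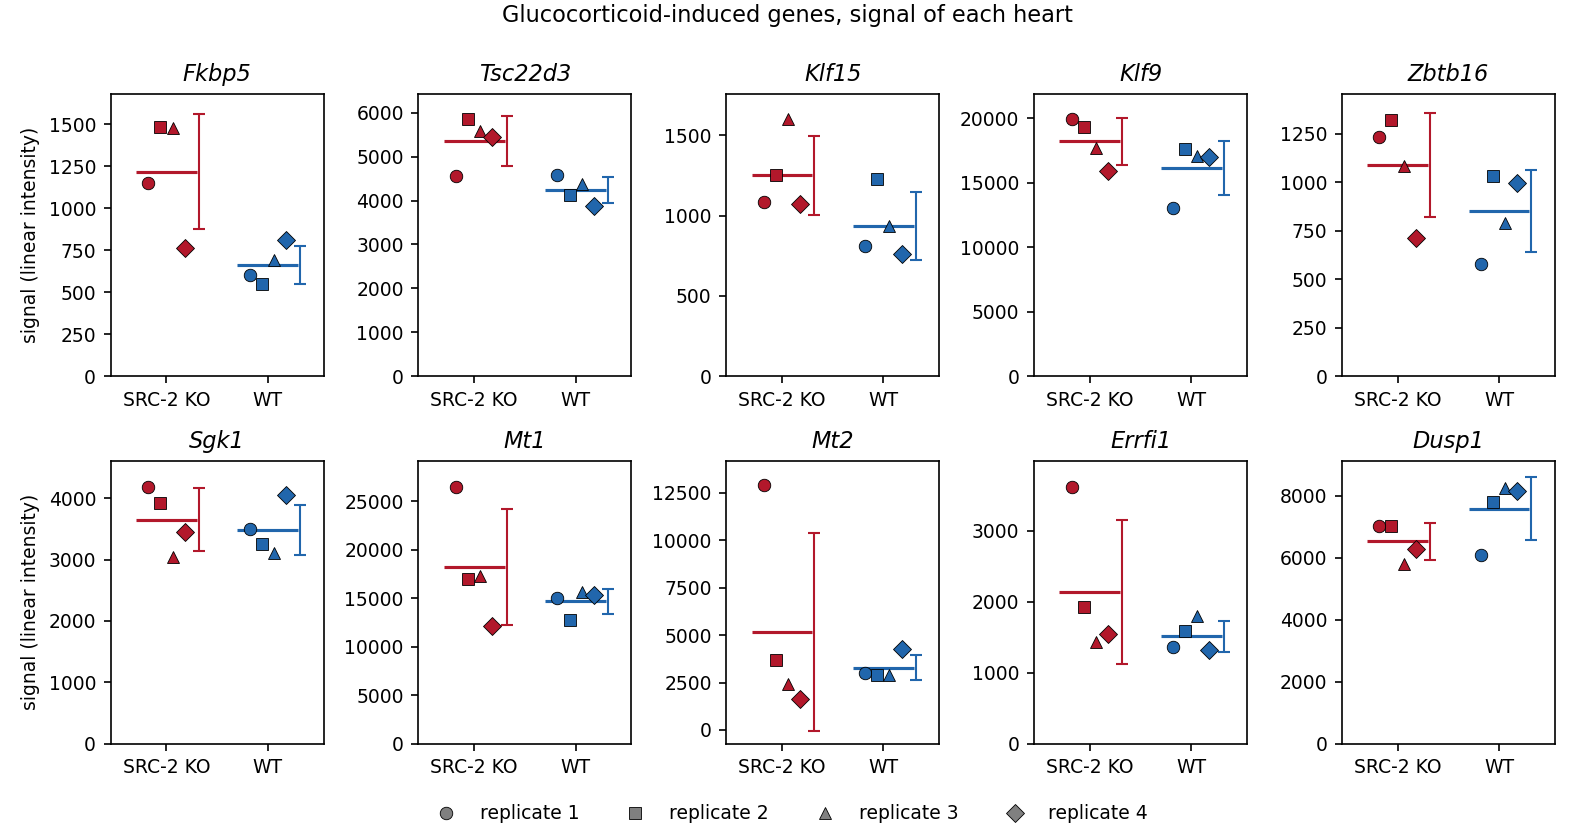
Signal of each of the 10 genes (linear intensity, y axis) in 4 SRC-2 KO and 4 WT hearts, 1 point per heart with the replicate number as its shape. Lines are means and bars are ± 1 SD. Every panel shows overlap between the genotypes. SRC-2 KO replicate 1 stands far above the rest for Mt1, Mt2 and Errfi1, and SRC-2 KO replicate 4 lies with the WT hearts for Fkbp5 and Zbtb16.

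The deleted gene and the receptor's own machinery were read first. Ncoa2 had a signal of 237, 260, 267 and 235 in SRC-2 KO hearts, against 1660, 2115, 1827 and 2134 in WT hearts. Every SRC-2 KO heart was far below every WT heart, and Ncoa2 fell by 2.95 on the log2 scale (SE 0.12, limma adjusted p = 5.8e-04). The other p160 coactivators had nearly the same signal in both genotypes, with log2 fold changes of 0.0029 for Ncoa1 (SE 0.13) and 0.0080 for Ncoa3 (SE 0.20). Nr3c1, the glucocorticoid receptor, gave 1298, 1627, 1697 and 2185 in SRC-2 KO hearts and 1693, 2286, 1850 and 2293 in WT hearts. Its ranges overlapped, and the log2 fold change was -0.27 (SE 0.19, limma adjusted p = 0.664). Nr3c2, the mineralocorticoid receptor, which also binds corticosterone, had a log2 fold change of -0.0086 (SE 0.20).

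Hsd11b1, the enzyme that regenerates active corticosterone from its inert keto form inside cells, gave 873, 947, 1552 and 956 in SRC-2 KO hearts, against 757, 754, 824 and 577 in WT hearts. Every SRC-2 KO heart was above every WT heart, with replicate 3 well above the other SRC-2 KO hearts. The log2 fold change was 0.54 (SE 0.22), which did not pass the adjusted test (limma adjusted p = 0.476). Its exact two-sided permutation p of 0.0286 is the smallest that 4 hearts against 4 can give. Any gene without overlap between the genotypes has this p, and 3.12% of all genes separated above WT and 3.72% below. Hsd11b2, which inactivates corticosterone, had mean signals of 24.5 in SRC-2 KO and 33.9 in WT hearts, both near background. Fkbp4, the co-chaperone that opposes Fkbp5 in the receptor complex, had a log2 fold change of 0.09 (SE 0.15).

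Over the whole list of 16 receptors, chaperones and steroid-converting enzymes, 10 log2 fold changes were positive and 6 negative, with a median of 0.05, and 0 were called in either fit. St13, a co-chaperone of heat shock protein 70, also lay above WT in every SRC-2 KO heart (log2 fold change 0.18, SE 0.09). Abcb1a, a pump that exports steroids from cells, lay below WT in every SRC-2 KO heart (-0.32, SE 0.14). With Hsd11b1, 2 of the 16 were above WT without overlap, against 3.12% of all genes, and 1 was below, against 3.72%. Of 14 coregulators of the receptor, Ncoa2 itself included, 5 were positive and 9 negative, and Ncoa2 was the 1 called in either fit. Nrip1, a corepressor that binds liganded nuclear receptors, gave 1295, 1431, 1278 and 1148 in SRC-2 KO hearts and 1553, 2001, 2036 and 1861 in WT hearts. All 4 SRC-2 KO values lay below all 4 WT values, and the log2 fold change was -0.53 (SE 0.13, limma adjusted p = 0.342, trended fit 0.0684). Hexim1, which binds the receptor and holds back transcription elongation, had a log2 fold change of -0.42 (SE 0.22) with overlapping hearts. Nr0b1, an orphan nuclear receptor that represses steroid receptors, was at signals under 50 on all arrays. Of the 14, 3 were below WT without overlap, against 3.72% of all genes, and 0 were above. These 3 were the deleted Ncoa2, Nrip1, and Nr0b1 at its low signals.

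Fkbp5 and Tsc22d3 feed back on the receptor's action, and they were the 2 members with the lowest p. Fkbp5 encodes FKBP51, a co-chaperone that lowers the receptor's affinity for hormone, and it is among the genes most widely used to read glucocorticoid activity. Its signal was 1151, 1481, 1476 and 761 in SRC-2 KO hearts, against 603, 547, 690 and 808 in WT hearts. SRC-2 KO replicates 1 to 3 were above every WT heart, and SRC-2 KO replicate 4 lay between WT replicates 3 and 4. The means were 1217 ± 341 in SRC-2 KO and 662 ± 114 in WT hearts (SD, n = 4 each). The log2 fold change was 0.84 (SE 0.25), the largest of the 10, with a limma adjusted p of 0.399 and 0.101 in the trended fit (exact two-sided permutation p = 0.0571).

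Without SRC-2 KO replicate 4 the log2 fold change of Fkbp5 was 1.05, with a limma adjusted p of 0.201, and of 0.0098 in the trended fit. That was the only setting in which any of the 10 genes was called, and in it 0.572% of all genes were called higher. Over the 8 settings that leave out 1 heart each, the log2 fold change of Fkbp5 ranged from 0.73 to 1.05. Another, much dimmer Fkbp5 probeset gave 203, 186, 101 and 67.8 in SRC-2 KO hearts and 16.3, 48.3, 98.9 and 123 in WT hearts. Replicates 3 and 4 fell inside the WT range on this probeset, replicate 4 the lowest of the SRC-2 KO hearts, and the log2 fold change was 1.19 (SE 0.69). The remaining probeset was near background in both genotypes (mean signal 15.7 in SRC-2 KO and 14.5 in WT hearts).

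The start of Fkbp5, whose known receptor sites lie mostly within distant introns, is shown as the promoter of the member with the largest fold change. The window holds the 250 bases before the RefSeq start on the minus strand (chr17:28486150-28486399, GRCm38.p6), with an E-box in capitals (CACGTG, the site that CLOCK and other helix-loop-helix factors bind).
Fkbp5 promoter: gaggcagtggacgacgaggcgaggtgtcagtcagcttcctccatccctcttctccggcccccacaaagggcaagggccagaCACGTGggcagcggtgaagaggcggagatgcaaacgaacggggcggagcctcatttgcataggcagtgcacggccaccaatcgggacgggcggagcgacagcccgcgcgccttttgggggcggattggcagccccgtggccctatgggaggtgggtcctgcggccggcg
It holds no match to the receptor's core motif ACANNNTGT on either strand, which 5.835% of 32851 mouse promoter windows of this length contain. The E-box is in 6.021% of them.

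Tsc22d3 encodes GILZ, a leucine zipper protein that carries part of the anti-inflammatory action of glucocorticoids. Its signal was 4550, 5853, 5580 and 5452 in SRC-2 KO hearts, against 4588, 4137, 4367 and 3876 in WT hearts. SRC-2 KO replicates 2 to 4 were above every WT heart, and replicate 1 was just under the highest WT heart. The means were 5359 ± 564 in SRC-2 KO and 4242 ± 305 in WT hearts (SD, n = 4 each), a log2 fold change of 0.33 (SE 0.12, limma adjusted p = 0.453, trended fit 0.162). Leaving out SRC-2 KO replicate 1 gave 0.41, and Tsc22d3 was then the 1 member with no overlap, against 4.52% of all genes above WT. Another probeset of Tsc22d3 gave 1738, 1696, 1714 and 1349 in SRC-2 KO hearts and 985, 1319, 1274 and 1081 in WT hearts. All 4 SRC-2 KO hearts were above all 4 WT hearts on this probeset, with a log2 fold change of 0.48 (SE 0.17), although its limma p adjusted over all probesets was 0.619. Of all genes, 3.12% separated in this way on their brightest probeset. The remaining probesets of Tsc22d3 had overlapping hearts, with log2 fold changes of 0.08 and 0.26.

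Klf15, Klf9 and Zbtb16 encode zinc finger transcription factors that the receptor induces directly. Klf15 drives amino acid breakdown and restrains hypertrophic growth in the heart. Its signal was 1083, 1253, 1600 and 1071 in SRC-2 KO hearts, against 813, 1230, 934 and 759 in WT hearts. WT replicate 2 was as high as the middle of the SRC-2 KO hearts, and the other 3 WT hearts were below all SRC-2 KO hearts. Its log2 fold change was 0.43 (SE 0.20, limma adjusted p = 0.533, trended fit 0.294), and the exact two-sided permutation p was 0.0857.

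Klf9, a repressor of the basic transcription element family that the hormone induces in brain and liver, had signals of 19939, 19346, 17711 and 15891 in SRC-2 KO hearts. In WT hearts it had 13028, 17613, 17054 and 16971. SRC-2 KO replicates 1 to 3 were above every WT heart, though replicate 3 by little, and replicate 4 was below 3 of the WT hearts. For Klf9 the log2 fold change was 0.18 (SE 0.14, limma adjusted p = 0.693), and it was 0.0769 without WT replicate 1, the lowest heart, and 0.24 without SRC-2 KO replicate 4. Of its 6 other probesets, 1 had all SRC-2 KO hearts above all WT hearts, at 15691, 13912, 13173 and 12455 in SRC-2 KO and 10870, 11776, 12210 and 10556 in WT hearts (log2 fold change 0.28, SE 0.14). On their brightest probesets, 3.12% of all genes separated above WT. The rest of the Klf9 probesets overlapped, with log2 fold changes of 0.27, 0.11, 0.20, 0.06 and, at mean signals under 50, -0.75.

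Zbtb16 encodes PLZF, a BTB-domain repressor among the genes that the hormone induces most sharply in human tissues. It gave 1232, 1322, 1086 and 711 in SRC-2 KO hearts, against 581, 1035, 792 and 998 in WT hearts. SRC-2 KO replicates 1 to 3 were above every WT heart, and replicate 4 was below all WT hearts but replicate 1. For Zbtb16 the log2 fold change was 0.35 (SE 0.26, limma adjusted p = 0.681). Fold changes ranged from 0.18 to 0.54 when 1 heart was left out, the upper end without SRC-2 KO replicate 4.

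**Figure D2:**
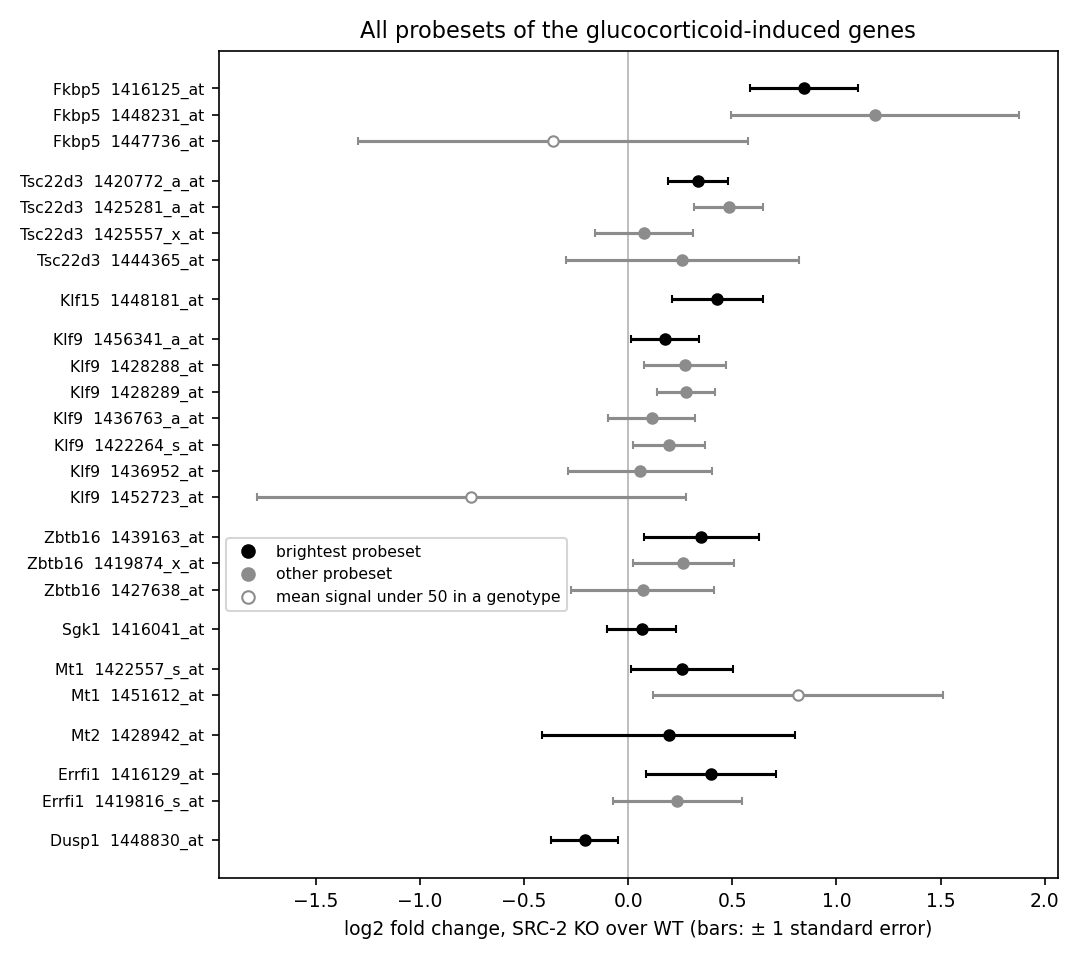
Log2 fold change, SRC-2 KO over WT (x axis), of all 25 probesets annotated to the 10 genes, each with ± 1 standard error from the fit over all probesets. Black points are the brightest probeset of a gene, grey points the others, and open points have a mean signal under 50 in a genotype. The filled points of all genes but Dusp1 lie at or right of 0.

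More than 1 probeset was present for 6 of the 10 genes. Of the 15 probesets other than the brightest, 13 had a positive log2 fold change, and the 2 negative ones, of Fkbp5 and Klf9, were dim. All 12 whose mean signal was at least 50 in both genotypes were positive. Probesets of 1 gene share its RNA, so they repeat the gene's reading on the same hearts.

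Sgk1, Dusp1 and Errfi1 act on kinase signalling, and their log2 fold changes were 0.07, -0.21 and 0.40. Sgk1, the serum- and glucocorticoid-regulated kinase, stabilises sodium and potassium channels. Its signal was 4188, 3927, 3037 and 3450 in SRC-2 KO hearts, against 3497, 3260, 3115 and 4048 in WT hearts. The ranges nearly coincided, and the log2 fold change was 0.07 (SE 0.15, limma adjusted p = 0.893). Leaving out SRC-2 KO replicate 1 brought it to -0.0042. Among 11 relatives and substrates of the kinase, 4 were positive and 7 negative, and 0 were called in either fit. This balance of signs turned with median centring of the arrays, to 6 positive and 5 negative. Sgk3, a related kinase, was lower in every SRC-2 KO heart than in any WT heart (log2 fold change -0.37, SE 0.12), and Ndrg2, of the family of proteins that SGK1 phosphorylates, was higher in every one (0.29, SE 0.10). Neither passed the adjusted test (limma adjusted p = 0.409 and 0.448). They were 1 of the 11 below WT and 1 above it without overlap, against 3.72% and 3.12% of all genes.

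Sgk1 is shown because 1 of its RefSeq start windows holds the complete palindromic receptor element, the core ACANNNTGT with AGA before it and TCT after it. That word is in 3 of the 32851 windows (0.009132%), searched on both strands, and it always overlaps a core match. The window is on the plus strand (chr10:21993640-21993889, GRCm38.p6), and capitals mark an E-box, CACGTG, and then the palindrome at -189 to -175 from the start.
Sgk1 promoter: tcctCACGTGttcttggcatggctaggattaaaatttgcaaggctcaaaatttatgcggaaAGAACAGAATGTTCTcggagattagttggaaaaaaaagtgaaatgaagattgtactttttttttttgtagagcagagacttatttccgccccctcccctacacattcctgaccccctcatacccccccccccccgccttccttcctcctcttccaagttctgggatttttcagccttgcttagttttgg
RefSeq gives Sgk1 6 start windows, and a further one holds the core motif alone. The array reads the far end of the transcript and does not tell these starts apart.

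Dusp1, a phosphatase that switches off p38 and other MAP kinases, was the 1 member with a negative log2 fold change. It gave 7018, 7035, 5799 and 6286 in SRC-2 KO hearts, against 6090, 7804, 8253 and 8167 in WT hearts. WT replicates 2 to 4 were above every SRC-2 KO heart, and WT replicate 1 lay among the SRC-2 KO hearts. For Dusp1 the log2 fold change was -0.21 (SE 0.14, limma adjusted p = 0.641). Leaving out WT replicate 1 gave -0.31, with no overlap, against 6.73% of all genes below WT in that setting.

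Errfi1 encodes MIG6, an inhibitor of the EGF receptor. Its signal was 3621, 1931, 1428 and 1547 in SRC-2 KO hearts, against 1357, 1582, 1796 and 1321 in WT hearts. SRC-2 KO replicate 1 was far above all other hearts, replicate 2 was also above every WT heart, and replicates 3 and 4 lay within the WT range. The log2 fold change was 0.40 (SE 0.30, limma adjusted p = 0.681), and it was 0.11 without SRC-2 KO replicate 1. Of 21 genes of the DUSP family and of EGF receptor and ERK feedback, 12 were positive and 9 negative, and 0 were called. Dusp5, a nuclear phosphatase of ERK, gave 40.6, 98.2, 43.8 and 14.5 in SRC-2 KO hearts, against 143, 244, 177 and 218 in WT hearts. All SRC-2 KO hearts were below all WT hearts, at low signals (log2 fold change -2.26, SE 0.54, limma adjusted p = 0.334). Hbegf, a ligand of the EGF receptor, gave 3992, 1475, 1557 and 1432 in SRC-2 KO hearts, against 1208, 1220, 1350 and 1168 in WT hearts. Every SRC-2 KO heart was above every WT heart, replicate 1 by far the most (log2 fold change 0.62, SE 0.34, limma adjusted p = 0.577). Of the 21, 1 separated above WT and 1 below, against 3.12% and 3.72% of all genes.

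Mt1 and Mt2 are neighbouring genes on chromosome 8 that encode metallothioneins, small proteins that bind zinc and copper. They answer to metals and oxidants as well as to glucocorticoids. Mt1 had signals of 26487, 17024, 17262 and 12119 in SRC-2 KO hearts, against 15046, 12767, 15628 and 15318 in WT hearts. SRC-2 KO replicates 1 to 3 were above every WT heart and replicate 4 was below them all. For Mt1 the log2 fold change was 0.26 (SE 0.23, limma adjusted p = 0.724), and it ranged from 0.06 without SRC-2 KO replicate 1 to 0.44 without replicate 4.

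Mt2 gave 12889, 3689, 2405 and 1626 in SRC-2 KO hearts, against 3008, 2899, 2921 and 4254 in WT hearts. Of all 10 genes it had the widest spread, with SRC-2 KO replicate 1 as the highest and replicate 4 as the lowest of the 8 hearts. The SD of its log2 signal was 1.30 in SRC-2 KO and 0.27 in WT hearts. The log2 fold change was 0.19 (SE 0.60, limma adjusted p = 0.928), and without SRC-2 KO replicate 1 it was -0.41. The Mt1 probeset belongs to a class that can read more than 1 transcript, and the 2 genes are alike in sequence, and whether it also read Mt2 RNA was not tested.

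Over the 8 hearts, each as its deviation from its genotype mean, Mt1 and Mt2 had a Pearson r of 0.92 (exact permutation p = 0.0382) and a Spearman rho of 0.71 (exact permutation p = 0.0764). Adjusted over the 45 pairs of the 10 genes, the p of r was 0.533. Without the 2 hearts farthest from the median of Mt1, r was 0.27, and without SRC-2 KO replicate 1 alone it was 0.72. The size of r thus depended on which hearts were kept. Of the 45 pairs, 32 had a positive r, with a median of 0.34, and 0 passed the adjusted test (lowest adjusted p = 0.469).

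The metallothionein starts are shown for their metal response elements, the sites of the zinc-sensing factor MTF-1. Both windows are on the plus strand of GRCm38.p6, at chr8:94172368-94172617 for Mt2 and chr8:94178839-94179088 for Mt1. Capitals mark TGCACNC or TGCGCNC on either strand and, in Mt1 only, the receptor core ACANNNTGT as its first run of capitals.
Mt2 promoter: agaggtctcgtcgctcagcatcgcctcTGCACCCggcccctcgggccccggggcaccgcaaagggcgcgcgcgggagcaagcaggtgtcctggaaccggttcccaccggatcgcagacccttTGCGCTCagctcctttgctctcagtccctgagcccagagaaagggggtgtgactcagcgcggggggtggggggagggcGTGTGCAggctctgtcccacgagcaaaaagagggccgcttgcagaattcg
Mt1 promoter: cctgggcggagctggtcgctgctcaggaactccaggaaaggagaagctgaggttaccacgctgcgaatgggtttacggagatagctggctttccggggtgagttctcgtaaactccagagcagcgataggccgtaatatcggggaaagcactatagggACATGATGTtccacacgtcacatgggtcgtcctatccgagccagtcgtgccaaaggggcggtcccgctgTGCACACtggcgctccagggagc
Mt2 has 3 metal response elements in its window, as many or more than which are in 1.263% of all windows, and Mt1 has 1, as 21.41% of windows have at least 1. The annotated Mt1 gene begins inside its window, at chr8:94178883, while the Mt2 window ends just before its gene. Elements outside these windows or with other letters were not counted. RefSeq windows were matched for 9 of the 10 genes (17 windows in all). The core ACANNNTGT was in windows of Sgk1 and Mt1 alone, the E-box in windows of Fkbp5, Klf15, Dusp1 and Sgk1, and the cyclic AMP element TGACGTCA, which 1.546% of windows hold, in those of Dusp1 and Errfi1. In Klf15 an E-box overlaps its 1 metal element. A match is a word in the sequence and was not tested as a binding site.

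Of 16 other genes of metal handling, 8 were positive and 8 negative, the median log2 fold change was 0.0098, and 0 were called. After median centring or quantile normalisation 10 were positive and 6 negative. The balance also turned with single hearts, to 10 positive and 6 negative (median 0.0614) without SRC-2 KO replicate 1 and 6 positive and 10 negative (-0.0799) without SRC-2 KO replicate 4. Mtf1 itself had a log2 fold change of 0.17 (SE 0.22) and the MTF-1 target Slc30a1, a zinc exporter, -0.12 (SE 0.18), both named after their values were seen. Cp, the copper-carrying ferroxidase, had 0.47 (SE 0.19) and Fth1, the ferritin heavy chain, 0.26 (SE 0.13), each with overlapping hearts. Slc30a4, a zinc exporter, was lower in every SRC-2 KO heart than in any WT heart (-0.28, SE 0.12). It was the 1 of the 16 below WT without overlap, against 3.72% of all genes, and 0 were above. Mt3, the neural metallothionein, was dim (mean signal 37.6 in SRC-2 KO and 68.0 in WT hearts).

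The SRC-2 KO hearts differed among themselves, with replicate 1 often the highest and replicate 4 often the lowest. SRC-2 KO replicate 4 was the lowest SRC-2 KO heart for 6 of the 10, as it was for 24.6% of all genes, and it was above all WT hearts for 1, Tsc22d3. SRC-2 KO replicates 1, 2 and 3 were above all WT hearts for 7, 7 and 6 of the 10, against 23.2%, 19.1% and 22.6% of all genes, and replicate 4 for 1 of 10 against 19.2%. Replicate 3 was below all WT hearts for 3 (Sgk1, Mt2 and Dusp1) and replicate 4 for 2 of the 10, against 25.7% and 19.6% of all genes, and replicates 1 and 2 for 0. The mean over the 10 genes of the log2 signal less its WT mean was 0.63, 0.39, 0.21 and -0.09 in SRC-2 KO replicates 1 to 4, and -0.15, 0.03, 0.04 and 0.09 in WT replicates 1 to 4. SRC-2 KO replicates 1 to 3 were above every WT heart in this mean, and replicate 4 lay among the WT hearts.

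**Figure D3:**
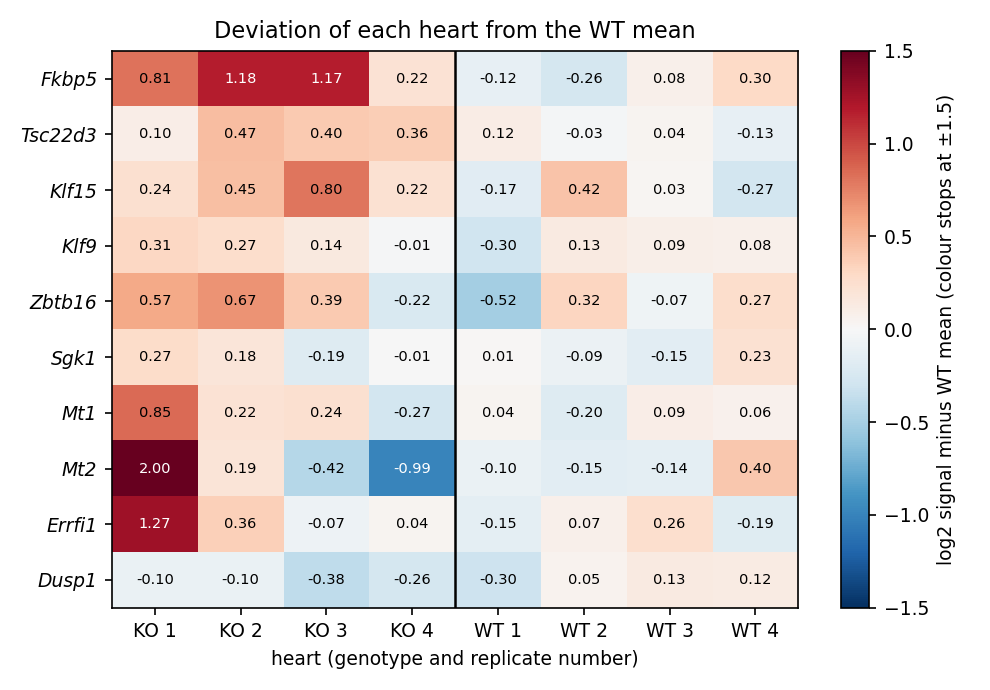
Log2 signal of each of the 10 genes less its mean over WT hearts (colour and printed value), for 4 SRC-2 KO hearts left of the line and 4 WT hearts right of it. The largest value is 2.00 for Mt2 in SRC-2 KO replicate 1, and in the column of SRC-2 KO replicate 4 the values run from -0.99 for Mt2 to 0.36 for Tsc22d3.

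Without SRC-2 KO replicate 4, 4 of the 10 (Fkbp5, Zbtb16, Klf9 and Mt1) were above WT in every remaining heart, against 6.32% of all genes, and the median log2 fold change was 0.47. In this setting 9 of the 10 were positive, against 46.7% of all genes. The heart left out was the lowest SRC-2 KO heart for 6 of the 10. With any other single heart left out, 0 or 1 of the 10 was above WT without overlap, against 4.15% to 5.92% of all genes. Without SRC-2 KO replicate 1, 7 of the 10 were positive, against 47.1% of all genes, and the median was 0.12. In each of the other settings run, 9 of the 10 were positive. The median of the 10 was therefore set in part by these 2 hearts.

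Markers of other cell types also differed between the hearts. Fibroblast markers were lower in SRC-2 KO hearts for 6 of 6 (median log2 fold change -0.56, summed signal 40718 to 52802 in SRC-2 KO and 47727 to 78572 in WT hearts). Endothelial markers were lower for 6 of 6 (-0.37, summed signal 6201 to 8736 in SRC-2 KO and 8663 to 11113 in WT hearts), and so were macrophage markers (5 of 6 after quantile normalisation, median -0.42, 7758 to 9408 in SRC-2 KO and 9938 to 12816 in WT hearts). In SRC-2 KO replicate 4 the mean deviation from WT was -0.08 for fibroblast, -0.19 for endothelial and -0.22 for macrophage markers, nearer to WT than in any other SRC-2 KO heart. The smooth muscle, adipocyte and atrial lists did not have this order. Smooth muscle and pericyte markers (5 of 5 lower, 4 of 5 after median centring, median -0.48) had mean deviations of -1.25, -0.07, -1.20 and 0.57 in SRC-2 KO replicates 1 to 4, and the 3 adipocyte markers (3 of 3 higher, median 0.69) had 0.34, 0.69, 1.07 and 1.22. Atrial markers (6 of 6 lower, median -2.18) summed to 16498 to 194621 in SRC-2 KO and 154437 to 257314 in WT hearts, and SRC-2 KO replicate 1 had by far the most of them among SRC-2 KO hearts (mean deviation -0.10, against -1.69, -3.80 and -1.95 in replicates 2 to 4). Ventricular markers were bright in every heart and higher in SRC-2 KO hearts for 7 of 7 in the deposited scaling (median 0.19). After quantile normalisation 5 of 7 were higher with a median of 1.7e-15, and after median centring the median was 0.25. The shift of these markers therefore depended on the scaling, and whether they mark the ventricle alone was not tested. Their summed signal was 455475 to 590991 in SRC-2 KO and 376553 to 526044 in WT hearts. The mean deviations of ventricular markers were 0.35, 0.11, 0.28 and 0.0033 in SRC-2 KO replicates 1 to 4. Lymphocyte markers were near background (summed signal at most 203), and no marker of any list was at 0. The part of these cell types in the values of the 10 genes was not tested.

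Immediate-early genes, which many stimuli induce within minutes, stood apart in the same heart as Mt2, Mt1 and Errfi1, with Dusp1 inside its WT range. The mean deviation of 24 such genes from WT was 1.03, 0.05, -0.58 and -0.0039 in SRC-2 KO replicates 1 to 4, and -0.52, 0.06, 0.13 and 0.33 in WT replicates 1 to 4. Replicate 1 was the highest of all 8 hearts for 16 of the 24 genes, as it was for 5 of the 10 glucocorticoid-induced genes and for 14.3% of all genes. Their signal summed to 22954 to 92322 in SRC-2 KO hearts, the highest in replicate 1, and 30804 to 37740 in WT hearts. Examples chosen after their values were seen are Atf3, a stress-induced transcription factor, with 6025, 688, 233 and 727 in SRC-2 KO and 263, 387, 637 and 1004 in WT hearts. Ccn2, a matrix-associated growth factor, gave 42319, 9177, 5621 and 8234 in SRC-2 KO hearts, against 10675, 12400, 10618 and 7755 in WT hearts. In both, SRC-2 KO replicate 1 was several times every other heart and the remaining hearts overlapped.

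By genotype, 16 of the 24 immediate-early genes were positive and 8 negative (median log2 fold change 0.08), and without SRC-2 KO replicate 1 they were 5 positive and 19 negative (-0.21). None was called in either fit. Ier3, which protects cells from death, was above WT in every SRC-2 KO heart (log2 fold change 0.26, SE 0.12). It was the 1 of the 24 above WT without overlap, against 3.12% of all genes, and 0 were below. Fos gave 1029, 487, 306 and 593 in SRC-2 KO hearts, against 373, 1679, 1477 and 1814 in WT hearts, so that 3 WT hearts were above every SRC-2 KO heart (log2 fold change -1.05, SE 0.59). Nr4a1 and Nr4a2, orphan nuclear receptors, had log2 fold changes of 0.76 (SE 0.48) and 0.87 (SE 0.44) with overlapping hearts.

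**Figure D4:**
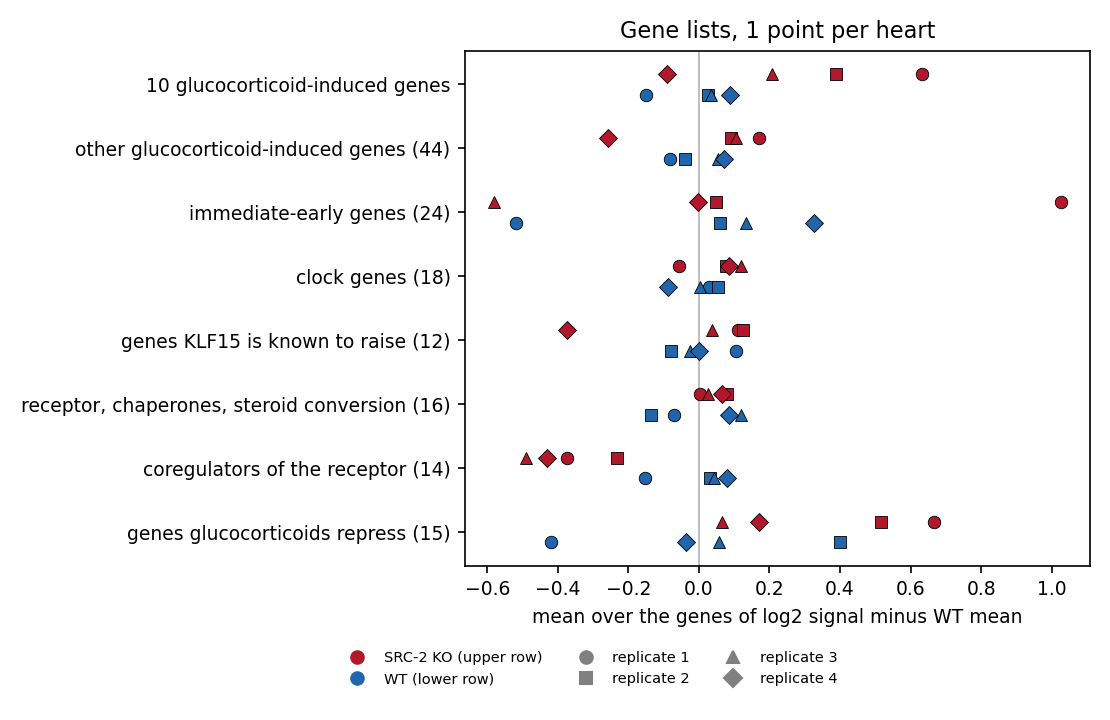
Mean over the genes of a list of the log2 signal less its WT mean (x axis), 1 point per heart, SRC-2 KO in the upper and WT in the lower row of each list. SRC-2 KO replicate 4 is the lowest SRC-2 KO heart for the 10-gene list, among other glucocorticoid-induced genes and among genes KLF15 is known to raise. SRC-2 KO replicate 1 is at 1.03 for immediate-early genes. The coregulator list is below WT in all 4 SRC-2 KO hearts, but its mean includes the deleted Ncoa2 (log2 fold change -2.95). The list without Ncoa2 was not examined.

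A wider list of 44 other genes that glucocorticoids induce was nearly balanced between the genotypes. Of these, 23 had a positive and 21 a negative log2 fold change (median 0.08). Without SRC-2 KO replicate 1 they were 20 and 24 (median -0.0134), and without SRC-2 KO replicate 4 they were 26 and 18 (0.18). The common-variance fit called 0, and the trended fit called 2, both lower, against 0.253% of all genes. Angptl4, an inhibitor of lipoprotein lipase that PPARs also induce, gave 502, 760, 320 and 413 in SRC-2 KO hearts, against 1502, 2169, 1336 and 3458 in WT hearts. Pdk4, the kinase that shuts off pyruvate oxidation, gave 18994, 12465, 9005 and 9799 in SRC-2 KO hearts, against 21627, 27460, 23818 and 29360 in WT hearts. Both were below WT in every SRC-2 KO heart, with log2 fold changes of -2.06 (SE 0.38, limma trended adjusted p = 0.0154) and -1.08 (SE 0.25, 0.0368). With signals under 50 set to 50 neither was called by the trended fit (limma adjusted p = 0.188 for Angptl4 and 0.230 for Pdk4). All of these signals were above 50, so the floor left both genes unchanged and altered only the fit over all genes. When 1 heart was left out, the trended fit still called Angptl4 in 7 of 8 settings, all but that without WT replicate 2, and Pdk4 in 2 of 8, those without SRC-2 KO replicate 1 or 4. The Angptl4 signals come from an _s_at probeset, a class that can match several transcripts, and its other probeset, under 50 in every heart, gave 0.60 (SE 0.90). Crispld2, a secreted glycoprotein, was also below WT in every SRC-2 KO heart (-0.56, SE 0.16), as was Fbxo32, a muscle ubiquitin ligase (-0.30, SE 0.11, named after its values were seen). These are 4 of the 44 below WT without overlap, against 3.72% of all genes. Above WT without overlap was 1 of the 44, against 3.12%. It was Maob, the mitochondrial amine oxidase, at 4458, 3783, 5683 and 3674 in SRC-2 KO and 2871, 3535, 2871 and 2647 in WT hearts (0.55, SE 0.18).

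Part of this list shared with Fkbp5 a low SRC-2 KO replicate 4, though not the order of the other SRC-2 KO hearts. SRC-2 KO replicate 4 was the lowest SRC-2 KO heart for 23 of the 44 genes, against 24.6% of all genes. Without it, 13 of the 44 were above WT in every remaining SRC-2 KO heart, against 6.32% of all genes, and 6 were below, against 8.28%. With any other single heart left out, 1 or 2 of the 44 were above, against 4.15% to 5.92% of all genes. In those settings 4 to 6 were below, against 5.14% to 6.73%. Fam107a, an actin-associated protein induced by the hormone in brain, gave 1113, 986, 1140 and 635 in SRC-2 KO hearts, against 479, 534, 742 and 501 in WT hearts. Its replicate 4 lay among the WT hearts (log2 fold change 0.77, SE 0.24, limma adjusted p = 0.402). Nfkbia, the inhibitor of NF-kappaB through which the hormone dampens inflammation, gave 13765, 13202, 12335 and 7201 in SRC-2 KO hearts, against 7080, 8217, 9486 and 7884 in WT hearts. Here too 3 SRC-2 KO hearts were above every WT heart and replicate 4 was not. Nfkbia was named after its values were seen.

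Genes that KLF15 is known to raise were more often positive than negative, but their mean did not separate the genotypes. The mean deviation of these genes from WT was 0.11, 0.12, 0.04 and -0.37 in SRC-2 KO replicates 1 to 4. In WT replicates 1 to 4 it was 0.10, -0.08, -0.02 and -2.4e-04, so SRC-2 KO replicate 4 was below every WT heart. Of 12, 8 were positive and 4 negative (median log2 fold change 0.25), 0 were called by the common-variance fit and 1, Slc2a4, by the trended fit, against 0.121% of all genes called higher. Of the 12, 4 were above WT in every SRC-2 KO heart, against 3.12% of all genes. Slc2a4, the insulin-responsive glucose transporter GLUT4, gave 10055, 9231, 9802 and 8709 in SRC-2 KO hearts, against 6562, 6326, 7501 and 6597 in WT hearts (log2 fold change 0.49, SE 0.11, limma trended adjusted p = 0.0368). It was not called with signals under 50 set to 50 (limma trended adjusted p = 0.128), and with 1 heart left out it was called in 1 of 8 settings, that without SRC-2 KO replicate 4. Its own signals, all above 50, were not changed by that floor. The other 3 belong to amino acid breakdown. Gpt, the alanine aminotransferase, gave 761, 813, 873 and 658 in SRC-2 KO hearts, against 589, 431, 454 and 469 in WT hearts (0.68, SE 0.15, limma adjusted p = 0.308). Prodh, proline dehydrogenase, had a log2 fold change of 0.60 (SE 0.14), and Bcat2, which starts the breakdown of branched-chain amino acids, of 0.58 (SE 0.17). The other genes of amino acid breakdown on this list had overlapping hearts and mixed signs, with log2 fold changes of 0.40 for Got1 (SE 0.17), -0.98 for Hpd (SE 0.42) and, at mean signals under 50 in both genotypes, -1.91 for Aass (SE 0.89) and -0.49 for Prodh2 (SE 0.39). These 4 were named after their values were seen. Of the 14 other KLF family members measured, 13 had negative log2 fold changes and 1 a positive one, whereas 46.9% of all genes were positive. The median of the 14 was -0.22, against -0.03 over all genes. After median centring or quantile normalisation 13 were again negative. Of these KLF genes 0 were called and 0 separated without overlap, against 3.12% of all genes above WT and 3.72% below. The lowest p among them was that of Klf10, the TGF-beta-induced early gene (-0.60, SE 0.22, limma adjusted p = 0.464).

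Clock genes follow a daily rhythm, as glucocorticoid levels do. Whether the hour at which hearts were taken played a part in the values here was not tested. Of 18, 10 were positive and 8 negative, and the trended fit called 1, Tef, higher, against 0.121% of all genes. Tef, an output factor of the clock, gave 1839, 1495, 2035 and 1566 in SRC-2 KO hearts, against 1162, 1003, 1250 and 944 in WT hearts. Dbp, its relative, gave 1441, 1384, 2252 and 629 in SRC-2 KO hearts, against 541, 443, 526 and 391 in WT hearts. Both were above WT in every SRC-2 KO heart, with log2 fold changes of 0.67 (SE 0.15, limma trended adjusted p = 0.0441) and 1.46 (SE 0.37, 0.0568), and Dbp was again lowest in SRC-2 KO replicate 4. Tef was not called with signals under 50 set to 50 (limma trended adjusted p = 0.203), and with 1 heart left out it was called in 1 of 8 settings, that without SRC-2 KO replicate 4. The signals of Tef itself, all above 50, were not changed by that floor. Npas2, a partner of the clock's activator, lay below WT in every SRC-2 KO heart (-0.87, SE 0.27). Of the 18, 2 were above WT without overlap, against 3.12% of all genes, and 1 was below, against 3.72%. Nr1d2, a repressor of the clock, had a log2 fold change of 0.49 (SE 0.18), and Per1, which is both a clock gene and a glucocorticoid target, of -0.14 (SE 0.20, named after its values were seen).

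Genes that glucocorticoids repress had mostly positive log2 fold changes as well. Of 15 such genes, nearly all of them inflammatory, 12 were positive and 3 negative (median 0.53, and 0.31 without SRC-2 KO replicate 1), and 0 were called in either fit or separated without overlap. Many of them were dim. Icam1, an adhesion molecule, gave 819, 568, 608 and 381 in SRC-2 KO hearts, against 341, 407, 445 and 377 in WT hearts (log2 fold change 0.55, SE 0.23). The chemokine Cxcl1 gave 329, 470, 466 and 147 in SRC-2 KO hearts, against 171, 93.6, 254 and 139 in WT hearts (1.06, SE 0.46). In both, SRC-2 KO replicates 1 to 3 were above every WT heart and replicate 4 was not.

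Across all genes at or above the median signal, those whose log2 signal followed Fkbp5 most closely over the 8 hearts were Pptc7, a mitochondrial phosphatase (r = 0.99), Mterf2, a mitochondrial transcription factor (r = 0.98), Tob2, an antiproliferative protein (r = 0.96), Pdpr, a regulator of pyruvate dehydrogenase phosphatase (r = 0.95), and Rbm38, an RNA-binding protein (r = 0.95). Pptc7 gave 11028, 12372, 12740 and 9555 in SRC-2 KO hearts, against 8170, 8169, 8932 and 9335 in WT hearts, so that replicate 4 was the lowest SRC-2 KO heart, just above the highest WT heart. These were picked as the highest of 9096 correlations over 8 hearts, with the genotypes pooled, and are a description. The genes nearest to Mt2 were Maff (r = 0.94), Zfp36 (r = 0.94), Med14 (r = 0.93), Abcg2 (r = 0.93) and Rhob (r = 0.92). Maff and Zfp36 are themselves early-response genes. Without the 2 hearts farthest from the median of Mt2, r was 0.89 for Maff and 0.94 for Zfp36, and 0.54 for Abcg2 and 0.27 for Rhob. The likeness of Abcg2 and Rhob to Mt2 rested on those 2 hearts.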

How the data were processed

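Expression was measured in 4 SRC-2 KO and 4 WT hearts, 1 Affymetrix mouse expression array each, grouped by the sample labels, which give separate hearts. The deposited values are linear fluorescence intensities between 0.219 and 124739. RMA and the programs Affymetrix Expression Console and Partek are listed by the submitters' processing notes, yet the values are not on RMA's log2 scale, and on every array their mean after trimming 2% of probesets at each end is 500.0. They were used as the authors deposited them, after log2, with no floor. The arrays' median signals were 75.6 to 87.3, and signal near background and the number of arrays limit the precision.

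Of 45101 probesets, 34958 had 1 gene symbol, 932 several and 9211 none listed, and 64 were controls. The probeset with the highest mean log2 signal stood for each of 18194 genes. The design had foreseen log2 values, so only the log step was added. Genotypes were tested with limma 3.58.1 under R 4.3.3 (lmFit, eBayes with one prior variance, two-sided, Benjamini-Hochberg over all genes, threshold 0.05), tested on simulated data, with the trended prior as the main alternative. Exact permutation tests over the 70 splits of 8 hearts and permutations within genotypes (576) were run in Python 3.11.15. The 10 genes and all lists were chosen with earlier results of these data known. Named genes were the 10 members, Ncoa2 and 7 fixed regulators, the 4 genes of each list with the lowest p, and the 5 most like Fkbp5 and Mt2. From the 11 lists of 214 entries, 205 were measured, and from 10 marker lists 48 of 53. Motifs were searched in 250-base windows of RefSeq (GRCm38.p6). No window was matched for Zbtb16.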

Additional observations from a re-analysis of the deposited data

Results flagged for a closer look

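Of 126 groups of 4 hearts examined for the named genes (63 genes), 6 held 1 heart whose gap to its nearest neighbour took more of the group's log2 range than Dixon's critical value allows. Chance gives about 1 in 20 such groups. Among SRC-2 KO hearts these were Hsd11b1, highest in replicate 3 (gap 0.842 of the range), Hbegf, highest in replicate 1 (0.919), and Nr0b1, highest in replicate 2 (0.881) at signals near background. Among WT hearts these were Klf9, lowest in replicate 1 (0.877), Mt2, highest in replicate 4 (0.904), and Fos, lowest in replicate 1 (0.870). Mt2 and Errfi1 in SRC-2 KO replicate 1 did not pass this limit.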

How the results depend on the processing

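Of the 10 genes, 0 were called in every setting run but 1, the fit without SRC-2 KO replicate 4 under the trended prior, which called 1, Fkbp5. Over all genes the common-variance fit called 1 higher and 3 lower, and the trended fit 22 and 46. Higher and lower calls were 0 and 1 with each gene's own variance, 0 and 1 with the mean of all probesets, 4 and 18 among genes at or above the median signal, and 0 higher with quantile normalization, and 0 and 2 with signals under 50 set to 50 under either prior. Leaving out 1 heart gave 0 to 104 higher and 1 to 216 lower, both highest without SRC-2 KO replicate 4 under the trended prior, and 0 to 1 of the 10 genes. The cause was not tested. Same-numbered hearts of the 2 genotypes correlated at 0.06, -0.08, -0.02 and 0.11, so the numbers were not treated as pairs. With the replicate number as a block the calls were 0 higher and 0 lower, and 26 and 51 with the trended prior, a setting chosen after seeing the data. Without 1 heart, the log2 fold change of Sgk1 ranged from -0.0042 to 0.15 and that of Mt2 from -0.41 to 0.59, both lowest without SRC-2 KO replicate 1, where 7 rather than 9 genes were positive, and the other 8 kept their sign. By the same ranges and settings, signs turned in Nr3c2 (-0.18 to 0.082, median centring 0.053, quantile normalization 0.061), Hsd11b2 (-0.71 to 0.17), Fkbp4 (-0.027 to 0.18, mean of all probesets -0.26), Ncoa1 (-0.079 to 0.060) and Ncoa3 (-0.15 to 0.13, array weights -0.0496). The mean of all probesets gave -0.22 for Nr4a2, -0.0374 for Nr1d2 and -0.17 for Dusp16, and without probesets marked _x_at and _s_at Angptl4 had 0.60. A dim probeset each of Fkbp5 and Klf9 gave -0.36 and -0.75. Ncoa2 was no longer called with the mean of all probesets or with the replicate block. Dim signals have wide errors, and 4 hearts a genotype limit every call.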
